A study of Mus musculus with 39 samples.

Results

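Most of the 77 genes described here encode protein subunits of the cytosolic ribosome. Exceptions include Rps19bp1 and Rpl7l1, a nucleolar relative of Rpl7. They were taken by symbol from the 10915 rows of a corrected expression table of mouse microglia: symbols that begin with Rpl or Rps and a digit, Rplp and a digit, or Rpsa, without ribosomal S6 kinase genes and without symbols that contain "-ps". The rule found 45 large-subunit names (Rpl and Rplp), 31 small-subunit names (Rps and Rpsa) and Rps19bp1, which encodes a binding partner of Rps19 and not a subunit. No measured value entered the rule. Of 86 annotated protein-coding symbols that match it, 75 were rows of the table, and Rpl10l, Rpl17, Rpl23a, Rpl24, Rpl27, Rpl28, Rpl36a, Rpl3l, Rps27rt, Rps28 and Rps29 are not analysed here. The remaining rows, Rpl37rt and Rps4l, were not in the annotation used.

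Each cytosolic ribosome joins a small subunit, which reads the mRNA, and a large subunit, which forms the peptide bond. Their proteins are made in near equal amounts, and mRNAs for them commonly begin with a run of pyrimidines, the terminal oligopyrimidine (TOP) tract, through which mTOR signalling controls their translation. In mammals most of these genes have processed pseudogenes, intronless copies of the mRNA that were inserted elsewhere in the genome. In macrophages such as microglia, stimulation through Toll-like receptors feeds into mTOR signalling.

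The mice were female C57BL/6J animals. APP23 mice were hemizygous for a transgene of mutant human amyloid precursor protein under the neuronal Thy-1 promoter, and wildtype (WT) littermates were their comparison. At 3 months all received 4 daily intraperitoneal injections: 4 of vehicle (PBS), 1 of lipopolysaccharide (LPS) from Salmonella then vehicle (1xLPS), or 4 of LPS (4xLPS), each LPS dose being 500 µg/kg. At 9 months microglia were isolated by cell sorting for sequencing of polyadenylated RNA, which gave 6 APP23 PBS, 5 APP23 1xLPS, 4 APP23 4xLPS, 9 WT PBS, 9 WT 1xLPS and 6 WT 4xLPS libraries. The comparisons ask whether an early peripheral challenge left a lasting difference in microglial RNA, and whether it differed with the transgene. The labels do not say that the libraries of a group came from different mice. P-values measure only the spread between libraries that was left after the correction described below, and this spread may be partly technical.

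Values are as deposited after surrogate variable analysis, a correction that removes variation shared across genes, and sequencing depth is unknown. They were taken as log2 units, although the base is not stated. Library medians lay between 9.25 and 9.27, and libraries of a group correlated at 0.999158 or more across all rows. All 8 microglial markers were measured and lay at or above the 99.4 percentile of mean level. Of the markers of other cells, 12 were measured, among them oligodendrocyte Mbp at 10.06 and astrocyte Slc1a3 at 11.68. In limma, 1 of these 12 was called in 1 of the 11 comparisons, monocyte Ccr2, lower in APP23 PBS than in WT PBS (log2 difference -0.23, SE 0.057, adjusted p = 0.0329), a comparison in which none of the 77 genes was called. With the 33 degrees of freedom explained below, 4 of 132 marker tests passed, against 4620 of 120065 over all rows. In bulk RNA, fewer cells of a type and less RNA per cell cannot be told apart.

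The coding sequences of 3 members show a property in which these genes differed from most of the table, sequence shared with other loci. Rpl37a (chr1:72711290-72713813, plus strand) and Rpl19 (chr11:98026710-98030492, plus strand) are the members with a called difference. Rps3 (chr7:99477896-99483738, minus strand) is among the members with the highest values. Coordinates are those of GRCm38 in GENCODE M21, each sequence is bases 1 to 150 of the coding sequence counted from the start codon, and capitals mark bases inside a 50-base window that also occurs in an annotated transcript of another locus.
Rpl37a: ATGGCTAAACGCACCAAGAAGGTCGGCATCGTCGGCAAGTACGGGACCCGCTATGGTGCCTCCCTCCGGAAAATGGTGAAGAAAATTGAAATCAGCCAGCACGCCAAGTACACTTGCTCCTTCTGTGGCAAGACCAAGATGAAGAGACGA
Rpl19: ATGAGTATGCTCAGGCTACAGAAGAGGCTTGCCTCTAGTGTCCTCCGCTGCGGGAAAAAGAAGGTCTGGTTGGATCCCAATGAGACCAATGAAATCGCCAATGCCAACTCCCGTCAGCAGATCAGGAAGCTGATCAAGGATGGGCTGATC
Rps3: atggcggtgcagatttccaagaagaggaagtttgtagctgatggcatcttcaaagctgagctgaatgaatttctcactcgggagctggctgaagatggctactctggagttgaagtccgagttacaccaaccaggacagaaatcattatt
Every coding base of Rpl37a (276 of 276) and of Rpl19 (588 of 588) lay in such a window; over the whole transcript, untranslated parts included, 38.5% of the windows of Rpl37a and 79.3% of those of Rpl19 were shared. In Rps3 it was 202 of 729 coding bases, none of them in the stretch shown.

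Shared windows were the common state of these genes. Of the 75 annotated members, 72 (96.0%) shared at least 1 window of 50 bases with another locus, against 26.8% of the other annotated rows. In 37 members (49.3%) more than 50% of the windows of the transcript were shared, against 1.5% of the other rows. The median member shared 49.3% of its windows, against 0 in the other rows. Rps27, a small-subunit protein with a zinc finger, was the extreme with 98.6%. Rpl7a, a large-subunit protein, shared windows with 120 other loci, of which 119 held an annotated pseudogene, and Rpl19 with 12, all holding one. Rpl39l and Rps19bp1 were among those that shared none.

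The levels of the cytosolic ribosomal protein genes were low within the table. Their median mean level over the 39 libraries was 6.15, at the 6.71 percentile of all rows, and 66 of 77 lay below the lower quartile of all rows, which was 8.08. The large-subunit names had a median of 6.17 and the small-subunit names of 6.15. There were 51 members in the lowest 10% of rows and 11 in the lowest 1%, and 3 of the 10 lowest rows of the whole table were members. The rows just inside and just outside the quartile were Rps14 at 8.06 and Rpl5, a large-subunit protein that binds 5S rRNA, at 8.09. These transcripts are short (median 799 bases, against 2843 in the other rows), and the distance was smaller per kilobase: the median member lay at the 23.1 percentile, 41 of 75 lay below the lower quartile and 58 below the median.

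**Figure D1:**
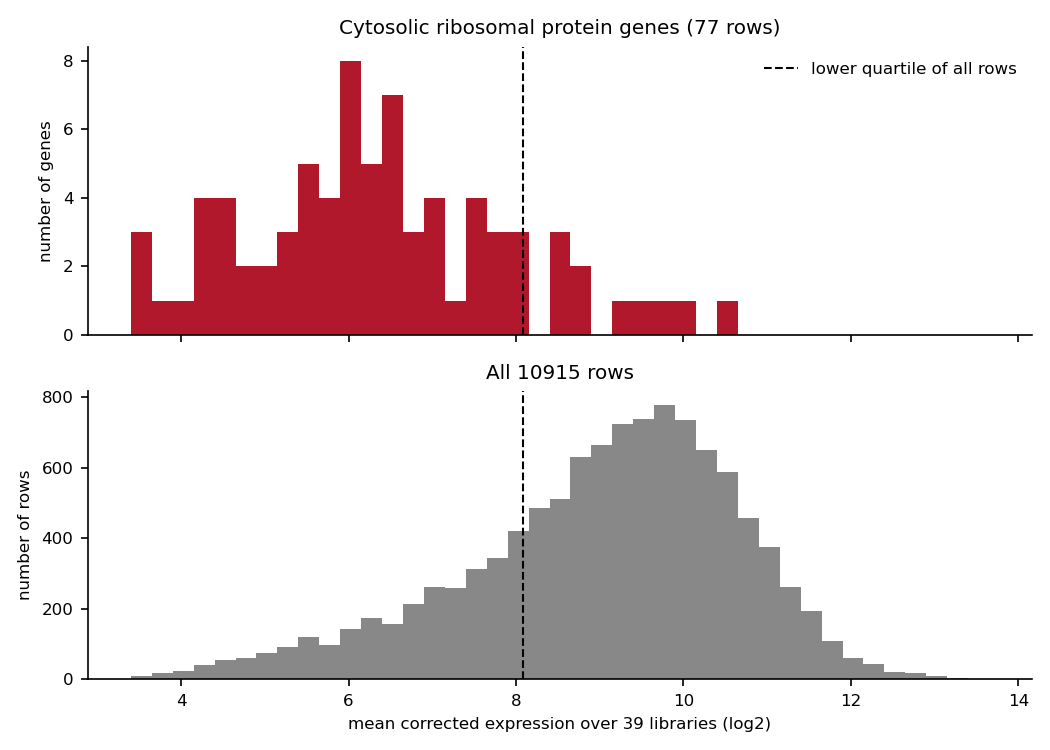
Distribution of the mean corrected expression over the 39 libraries (log2, x axis) for the 77 ribosomal protein genes (upper panel) and all 10915 rows (lower panel), as numbers of genes per bin. The dashed line is the lower quartile of all rows, 8.08, and 66 of the 77 members lie left of it.

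The lowest members came from both subunits. Rpl36 of the large subunit had a mean level of 3.55 and Rpl11, which binds 5S rRNA together with Rpl5, of 3.60. Rps23, a small-subunit protein at the decoding centre, stood at 3.60, Rps12 at 4.13 and Rpl37rt, by its name a retrotransposed copy of Rpl37, at 4.17. Rpl19, which forms a contact with the small subunit, stood at 4.41 and Rpsa, also known as a laminin receptor, at 4.48. On the scale per kilobase these rows stayed low where a length was known: Rpl36 lay at the 6.01 percentile, Rpl11 at 2.33, Rps23 at 1.87, Rps12 at 7.23, Rpl19 at 5.67 and Rpsa at 2.14.

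The other large-subunit names below the quartile included Rpl3, Rpl6, Rpl7, Rpl7a, Rpl9, Rpl10, Rpl10a, Rpl12, Rpl13, Rpl14, Rpl15, Rpl18, Rpl21, Rpl22l1, Rpl23, Rpl26, Rpl27a, Rpl29, Rpl30, Rpl31, Rpl32, Rpl34, Rpl35, Rpl35a, Rpl36al, Rpl37, Rpl37a, Rpl38, Rpl39, Rpl39l, Rpl41, Rplp1 and Rplp2. The other small-subunit names below it included Rps2, Rps3a1, Rps4x, Rps6, Rps7, Rps10, Rps13, Rps14, Rps15, Rps15a, Rps16, Rps18, Rps19, Rps20, Rps21, Rps24, Rps25, Rps26, Rps27, Rps27a and Rps27l, and Rps19bp1 was below it too.

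Members above the median of all rows (9.26) included Rpl7l1 at 10.42, Rpl4 at 10.09, Rps3 at 9.83 and Rpl8 at 9.46. Rpl7l1 is a nucleolar relative of Rpl7, Rpl4 lines part of the exit tunnel of the large subunit, and Rps3 sits at the mRNA entry of the small subunit. Per kilobase, Rpl8 lay at the 92.9 percentile, Rpl4 at 89.7, Rpl7l1 at 81.0 and Rps3 at 77.6. These 4 shared between 2.96 and 16.5% of their windows with other loci.

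Level and shared sequence went together across the members. Spearman's rho between mean level and the percentage of shared windows was -0.54 over 75 members and -0.13 over the other rows, and per kilobase it was -0.41 over the members. These are descriptions across genes of the same libraries, which share their depth and their correction. The 8 members with at most 10% shared windows had a median level of 8.58, the 30 with over 10 to 50% of 6.56, the 33 with over 50 to 90% of 5.60 and the 4 with over 90% of 5.33. The other rows had medians of 9.43, 8.44, 6.96 and 4.72 in the same ranges of sharing, so lower levels with more sharing were seen outside the family too. The percentage shared depends on the 1 transcript chosen per gene and would move with another isoform. Among the 8 members with at most 10%, Rps15a and Rps20 had long chosen transcripts, of 5130 and 3706 bases, and Rps19bp1 is not a subunit. Low sharing did not always go with a high value: Rpl39l, a relative of Rpl39 that is mainly known from testis, shared no window and stood at 4.36. No label or file header says how reads with several matches were counted, and the part of shared sequence in the low levels was not tested.

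**Figure D2:**
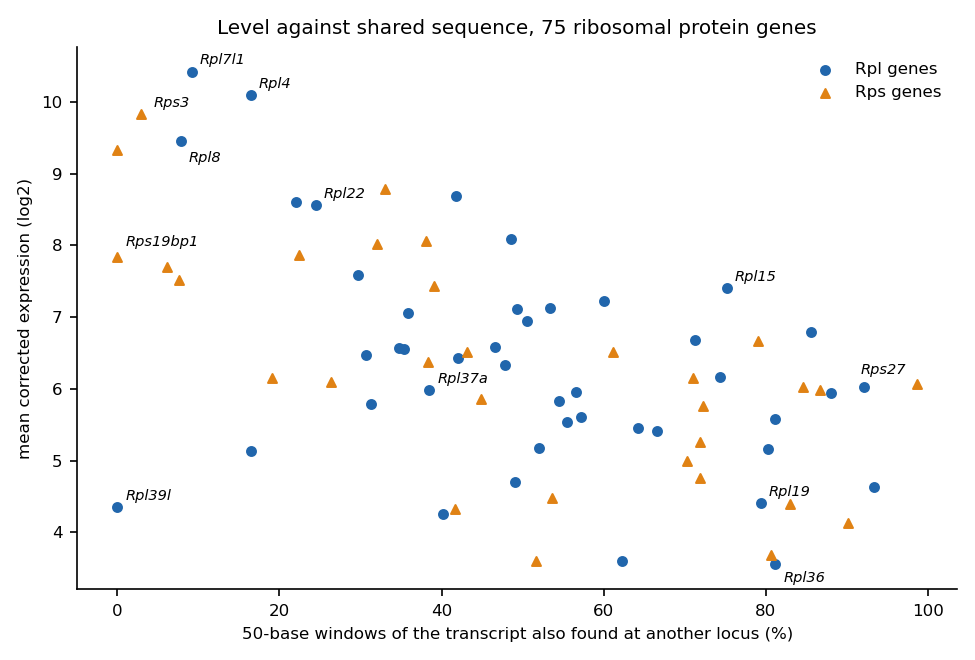
Mean corrected expression over 39 libraries (log2, y axis) against the percentage of 50-base windows of the transcript found at another locus (x axis), 1 point per gene for 75 members. Rps3, Rpl8, Rpl4 and Rpl7l1 lie at the upper left, and no member with over 50% shared windows is above 7.41.

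Related genes stood at different levels. Mitochondrial ribosomal proteins, which build the separate ribosome of that organelle, had a median level of 8.64 over 77 genes (35.2 percentile), 16 below the lower quartile, and none with over 50% shared windows. Outside the rule, Fau, which encodes a ribosomal protein fused to a ubiquitin-like protein, stood at 5.02 with 76.9% of its windows shared. Rack1, a scaffold protein on the small subunit, stood at 9.95 with 0.930%.

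Paralogs were separate rows, and levels between genes are compared here only per kilobase. Rpl22, also an RNA-binding protein needed in T cell development in mice, lay at the 92.3 percentile and its relative Rpl22l1 at 20.8. Rps27l lay at 77.0 and Rps27 at 43.2. Rpl7l1 lay at 81.0 and Rpl7 at 28.2. Rpl36al lay at 41.1, Rpl10 at 19.1 and Rpl10a, a different protein despite its name, at 19.8. Of the acidic stalk that recruits elongation factors, Rplp0 lay at 60.7, Rplp1 at 60.2 and Rplp2 at 21.7. Rps6, the S6 kinase substrate, lay at 17.4. All lengths are of 1 chosen transcript per gene, so a percentile would move with another isoform. The lower gene of a pair also shared more of its windows with other loci. This was 57.3% in Rpl22l1 against 24.5% in Rpl22, 98.6% in Rps27 against 22.4% in Rps27l, and 53.3% in Rpl7 against 9.19% in Rpl7l1. How reads with several matches were counted is not given, and the part of shared sequence in these levels was not tested.

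The starts of the genes were read from RefSeq on GRCm38.p6 for the 59 members with an entry. A tract of C followed by at least 4 pyrimidines on the coding strand began exactly at the annotated start in 12 of 59 (20.3%), against 3.01% of 27025 symbols. Within 5 bases of the start it began in 28 of 59 (47.5%), against 19.7%. None of these counts changed when tracts that overlap the ETS motif CCGGAAG were left out for the members; the shares of all symbols were then 2.94% and 19.2%. The 30 bases around the start are shown for the called members Rpl37a (chr1:72711245-72711274) and for the upstream of 2 starts of Rpl19 (chr11:98026695-98026724), and for 4 members with a tract: Rpl15 (chr14:18270972-18271001, minus strand), Rplp2 (chr7:141447636-141447665), Rps6 (chr4:86857353-86857382, minus strand) and Rps15a (chr7:118116133-118116162, minus strand). The first 15 bases precede the start, and capitals mark the tract.
Rpl37a: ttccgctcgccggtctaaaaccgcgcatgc
Rpl19: tgaccaaacgccctcactgcgcatgtgcgc
Rpl15: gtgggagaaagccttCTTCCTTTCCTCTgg
Rplp2: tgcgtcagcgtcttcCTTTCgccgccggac
Rps6: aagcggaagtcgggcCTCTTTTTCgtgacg
Rps15a: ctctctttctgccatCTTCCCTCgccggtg
Neither start shown for Rpl37a and Rpl19 held a tract at its first base. In the window from 250 bases before to 50 after the start, searched on both strands, CCGGAAG occurred in 26 of 59 members (44.1%) against 9.93% of all symbols, the YY1 motif AAGATGGC in 6 (10.2%) against 3.19%, and TATAAA in 5 (8.47%) against 15.7%. All symbols here means the 27025 with an annotated start, whether measured or not, and not the 10915 rows used as background elsewhere. A match is a description of letters and not a shown binding site.

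On the corrected scale, values of these genes were even between libraries. The SD around the 6 group means, on 24 degrees of freedom, had a median of 0.0154 over the members, against 0.0407 over all rows. In every range of level the members' median SD was below that of the other rows; between 6 and 7 it was 0.0151 over 20 members, against 0.0394 over 578 rows. Only 4 members exceeded the median of all rows: Rps15a with 0.0845, Rpl22 with 0.0559, Rps4l with 0.0465 and Rps20 with 0.0440. Rps15a and Rps20 are small-subunit proteins. SD and level went together within the family (rho 0.65 over 75 members), against -0.16 over other rows, which share libraries and correction.

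**Figure D3:**
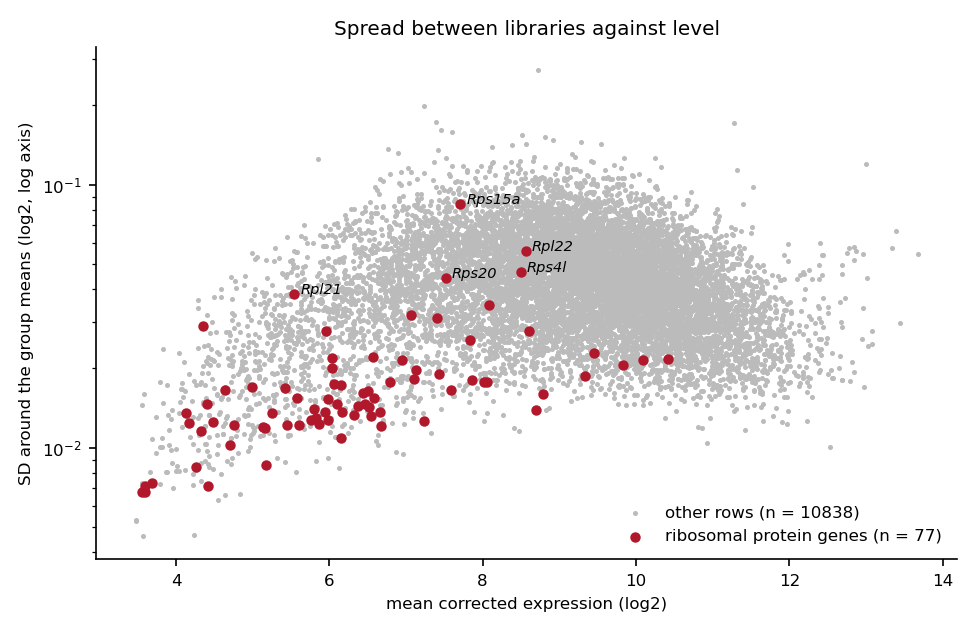
SD around the 6 group means (log2 units on a log axis, y) against mean corrected expression (log2, x), 1 point per row. The 77 members are the larger red points, most of them at the lower edge of the other rows, with Rps15a at 0.0845 and Rpl22 at 0.0559 above the rest.

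Group differences of the family were small. The range of the 6 group means had a median of 0.0189 over the members, against 0.0509 over all rows, and was under 0.05 in 72 of 77. These ranges were not matched for level, and 66 of the 77 members lay below the lower quartile. Other rows also had a smaller median SD at low level, 0.0172 between 3 and 5, against 0.0483 between 8 and 9. The part of level in the small ranges was not tested. Averaged over all 77 members, a library's mean level was 6.366 ± 0.0038 in APP23 PBS (SD, n = 6), 6.360 ± 0.0053 in APP23 1xLPS (n = 5) and 6.361 ± 0.0021 in APP23 4xLPS (n = 4). It was 6.360 ± 0.0040 in WT PBS (n = 9), 6.363 ± 0.0033 in WT 1xLPS (n = 9) and 6.366 ± 0.0033 in WT 4xLPS (n = 6). The group means spanned less than 0.01 on the log2 scale. The highest group mean was in APP23 PBS for 19 members (24.7%, against 14.8% of all rows) and in WT 4xLPS for 19 (24.7%, against 18.01%). The lowest was in APP23 1xLPS for 17 members (22.1%, against 19.8%) and in WT PBS for 20 (26.0%, against 21.7%).

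Over the 6 groups at once, limma's F test called 1 member, Rpl37a (adjusted p = 0.0415), where it called 2.13% of all rows. Here and below the fit counted 24 degrees of freedom, the number of directions in which the corrected values still varied; libraries minus groups would give 33, and then 12 members and 21.1% of rows passed. Rpl37a is a zinc-binding protein of the large subunit. Among the next were Rpl15 (adjusted p = 0.0606), Rpl19 (0.0791), Rpl22 (0.114) and Rpl39 (0.144). Without WT 4xLPS replicate 5 or replicate 6 the count was 0, and without APP23 4xLPS replicate 3 it was 3, Rpl37a, Rpl15 and Rpl19. It was also 0 with the replicate numbers as a block, with no mean-variance trend and with rows below the lower quartile left out, a filter that removes Rpl37a itself.

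In WT mice, 4xLPS went with higher Rpl37a and Rpl19 at 9 months. Rpl37a ranged from 5.991 to 6.034 in WT 4xLPS (median 6.013, n = 6) and from 5.959 to 5.993 in WT PBS (median 5.972, n = 9). The ranges overlapped at their edges, and all 6 WT 4xLPS libraries were above the WT PBS mean. The log2 difference was 0.037 (SE 0.0083, adjusted p = 0.0226 in limma). Rpl19 ranged from 4.420 to 4.431 in WT 4xLPS (median 4.426) and from 4.395 to 4.420 in WT PBS (median 4.409), and the groups did not overlap. The log2 difference was 0.019 (SE 0.0045, adjusted p = 0.0322). These were 2 of 77 members higher and 0 lower, where 1.51% of all rows were called and 0.88% were called higher. On 33 degrees of freedom 9 members passed, against 8.95% of rows. Both genes lay below the lower quartile of level and both coding sequences were wholly shared with other loci as printed above, although Rpl37a, at 38.5% of its transcript windows, was below the median member; the part of either in these differences was not tested.

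Rpl19 lost its call without WT 4xLPS replicate 5 (adjusted p = 0.0541) or replicate 6 (0.0512), with no mean-variance trend (0.174) and with each library recentred on its median (0.0518). Rpl37a kept it in each of these, and without replicate 5 Rpl7l1, lower in WT 4xLPS, was called (0.0348). With the replicate numbers of the labels as a block, neither was called (0.0799 for Rpl37a and 0.0700 for Rpl19).

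Other members in this comparison did not pass. Rps25, a small-subunit protein used by some viral internal ribosome entry sites, ranged from 6.516 to 6.528 in WT 4xLPS (median 6.523) and from 6.479 to 6.515 in WT PBS (median 6.495). The groups did not overlap, as in 0.861% of all rows in this direction, and the log2 difference was 0.026 (SE 0.010, adjusted p = 0.183). Rps15a was furthest above 0, at 0.094 (SE 0.042, adjusted p = 0.240), and Rpl7l1 furthest below, at -0.043 (SE 0.013, adjusted p = 0.0717). Rpl22 ranged from 8.591 to 8.636 in WT 4xLPS (median 8.606) and from 8.449 to 8.601 in WT PBS (median 8.506), a difference of 0.093 (SE 0.029, adjusted p = 0.0864). Over all 77 members the median difference was 0.0048, against 0.0023 over all rows, with 52 members above 0 (67.5%, against 53.5% of rows), and 16.9% of members had an unadjusted p under 0.05, against 17.4% of rows.

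**Figure D4:**
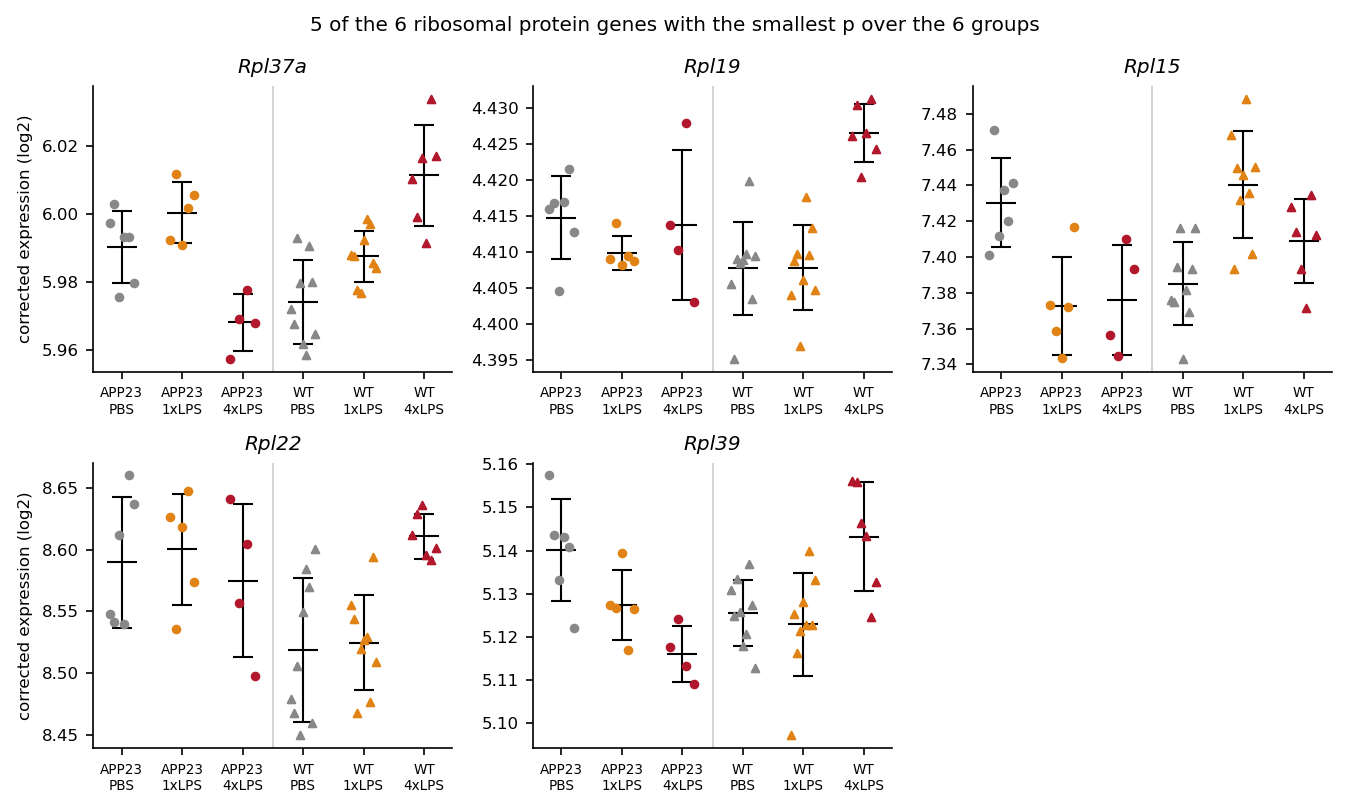
Corrected expression (log2, y axis) of 5 of the 6 members with the smallest p over the 6 groups, 1 point per library, APP23 groups as circles and WT groups as triangles, with a bar for the group mean and whiskers for 1 SD; each panel has its own y axis. In Rpl37a the APP23 4xLPS libraries lie between 5.957 and 5.978 and the WT 4xLPS libraries between 5.991 and 6.034.

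A single LPS injection in WT mice was followed by no called member in limma, where 0.44% of rows were called; 6 members had an unadjusted p under 0.05 (7.79%, against 14.9% of rows). Rpl15, a core protein of the large subunit, ranged from 7.393 to 7.488 in WT 1xLPS (median 7.446) and from 7.343 to 7.416 in WT PBS (median 7.382). The groups overlapped, with all 9 WT 1xLPS libraries above the WT PBS mean, and the difference was 0.056 (SE 0.015, adjusted p = 0.0933). Rpl7l1 was the furthest below 0, at -0.032 (SE 0.011, adjusted p = 0.179). The median over the members was 0.0014, the same to 2 digits as over all rows. Rpl15 and Rpl7l1 passed on 33 degrees of freedom, where 6.05% of rows did. WT 1xLPS and WT 4xLPS were both set against WT PBS and share those libraries.

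Between WT 4xLPS and WT 1xLPS, limma called no member at 0.0183% of rows, and 6 members had an unadjusted p under 0.05 (7.79%, against 9.13% of rows). Rpl19 ranged from 4.420 to 4.431 in WT 4xLPS and from 4.397 to 4.418 in WT 1xLPS (median 4.409), without overlap, as in 0.247% of rows; the difference was 0.019 (SE 0.0045, adjusted p = 0.180). Rpl22 had the largest difference at 0.086 (SE 0.029, adjusted p = 0.363) and Rpl15 the lowest at -0.032 (SE 0.017, adjusted p = 0.607). With 33 degrees of freedom Rpl19 passed, and 0.66% of rows.

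In APP23 mice no member was called in limma after either treatment, and neither was any other row (0%). APP23 1xLPS against APP23 PBS had 7 members with an unadjusted p under 0.05 (9.09%, against 8.47% of rows), and APP23 4xLPS against APP23 PBS had 5 (6.49%, against 7.62%); both use the same APP23 PBS libraries. Rpl15 was 7.343, 7.358, 7.372, 7.373 and 7.417 in APP23 1xLPS and ranged from 7.401 to 7.471 in APP23 PBS (median 7.429), a difference of -0.058 (SE 0.020, adjusted p = 0.372). Furthest below and above 0 were Rps4l at -0.058 and Rpl39l at 0.035 after 1xLPS, and Rps4l at -0.063 and Rpl39l at 0.029 after 4xLPS (adjusted p between 0.567 and 0.751). The median over the members was -0.0045 after 1xLPS, against -0.00030 over all rows, and -0.0026 after 4xLPS, against 0.00053. No member passed on 33 degrees of freedom in either comparison, where 0.715% of rows did after 1xLPS and 0.247% after 4xLPS.

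APP23 4xLPS against APP23 1xLPS gave no call in limma in any row, with 4 members at an unadjusted p under 0.05 (5.19%, against 9.74% of rows). Rpl37a was 5.957, 5.968, 5.969 and 5.978 in APP23 4xLPS and 5.991, 5.992, 6.002, 6.006 and 6.012 in APP23 1xLPS. The groups did not overlap, as in 2.76% of rows in this direction, and the difference was -0.032 (SE 0.011, adjusted p = 0.292). Rplp2 and Rpl37rt were without overlap in the other direction, as in 2.97% of rows, with differences of 0.014 (SE 0.012) and 0.021 (SE 0.0083). Rps20 had the highest difference, 0.025 (SE 0.029, adjusted p = 0.833). Rpl37a passed on 33 degrees of freedom, as did 1.48% of rows.

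The transgene alone, APP23 PBS against WT PBS, gave no called member in limma where 2.51% of rows were called, and 12 members had an unadjusted p under 0.05 (15.6%, against 18.1% of rows). Rplp2 of the stalk ranged from 6.466 to 6.513 in APP23 PBS (median 6.491) and from 6.451 to 6.477 in WT PBS (median 6.460). The groups overlapped, and the difference was 0.030 (SE 0.0096, adjusted p = 0.0821). Rpl22 had the largest difference, 0.071 (SE 0.029, adjusted p = 0.179), and Rpl39l the lowest, -0.036 (SE 0.014, adjusted p = 0.178). Without APP23 PBS replicate 3, Rplp2 was called. On 33 degrees of freedom 3 members passed, all higher in APP23 PBS and among them Rpl15 and Rplp2, against 9.62% of rows.

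After 1xLPS, APP23 against WT gave no called member in limma where 0.33% of rows were called, and 6 members had an unadjusted p under 0.05 (7.79%, against 12.9% of rows). Rpl15 was between 7.343 and 7.417 in APP23 1xLPS and between 7.393 and 7.488 in WT 1xLPS, a difference of -0.068 (SE 0.018, adjusted p = 0.0834), with all 5 APP23 1xLPS libraries below the WT 1xLPS mean. Rpl22 was the highest at 0.076 (SE 0.030, adjusted p = 0.258). Rplp2 did not overlap, lower in APP23 1xLPS as in 0.88% of rows, at -0.017 (SE 0.010, adjusted p = 0.495). Rpl15 and Rpl38 passed on 33 degrees of freedom, both lower in APP23 1xLPS, among 4.34% of rows. Of the 3 measured border macrophage and monocyte markers, 0 lay above 0 here, with a median of -0.171. Among them, Mrc1 was at -0.214 (SE 0.064, adjusted p = 0.123 in limma, and 0.0210 on 33 degrees of freedom). The part of these markers in the differences of the members was not tested.

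After 4xLPS, APP23 against WT gave no call in limma in any row, with 7 members at an unadjusted p under 0.05 (9.09%, against 9.54% of rows). Without overlap and lower in APP23 4xLPS were 3 members, Rpl37a and Rpl39 among them, as were 1.53% of rows. Rpl37a had the values given above, and its difference was -0.043 (SE 0.010, adjusted p = 0.130). Rpl39, which lines the exit tunnel, was 5.109, 5.113, 5.118 and 5.124 in APP23 4xLPS and ranged from 5.125 to 5.156 in WT 4xLPS (median 5.145), a difference of -0.027 (SE 0.0086, adjusted p = 0.267). Rps15a was furthest below 0 at -0.108 (SE 0.051, adjusted p = 0.515) and Rpl23 furthest above at 0.027 (SE 0.016, adjusted p = 0.604). Rpl37a and Rpl39 passed on 33 degrees of freedom, among 1.57% of rows.

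Whether the response to 4xLPS differed with the transgene was tested by an interaction, the APP23 difference from PBS minus the WT difference from PBS. It was called for Rpl37a, in limma, at -0.059 (SE 0.013, adjusted p = 0.0336), 1 of 77 members where 0.522% of rows were called. In APP23 mice Rpl37a averaged 5.968 ± 0.0083 in 4xLPS (SD, n = 4) and 5.990 ± 0.011 in PBS (n = 6), a difference of -0.022 (SE 0.010, adjusted p = 0.599). In WT mice it averaged 6.011 ± 0.015 in 4xLPS (n = 6) and 5.974 ± 0.012 in PBS (n = 9). The interaction was not called without APP23 4xLPS replicate 1 (adjusted p = 0.0581) or replicate 4 (0.0535), without a mean-variance trend (0.0504) or with the replicate block (0.0980). Astrocyte Aqp4 had an interaction of 0.081 (SE 0.028, adjusted p = 0.176, and 0.0405 on 33 degrees of freedom). It was 1 of 2 measured astrocyte markers and had a low mean level of 5.18 (2.68 percentile). The other, Slc1a3, did not lie above 0, and the part of either marker in the result was not tested. All 3 measured border macrophage and monocyte markers lay above 0 in this interaction, with a median of 0.131. Their smallest adjusted p was 0.400 in limma, and their part was not tested either. Without WT 4xLPS replicate 5 or APP23 PBS replicate 6, Rpl39 was called too; its value over all libraries was -0.042 (SE 0.011, adjusted p = 0.0852). Rps15a was furthest below 0, at -0.124 (SE 0.066, adjusted p = 0.393), and Rpl39l furthest above, at 0.048 (SE 0.023, adjusted p = 0.321). The median over the members was -0.0070, against -0.0017 over all rows, with 26 of 77 above 0 (33.8%, against 48.5% of rows). Over the 11 members at or above the lower quartile of level it was -0.024. A median over all rows at or above that quartile was not computed. On 33 degrees of freedom 5 members passed, all below 0 and among them Rpl37a, Rpl39, Rpl15 and Rpl19, against 5.3% of rows.

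The same test for 1xLPS called no member in limma, at 0.0366% of rows, with 7 members at an unadjusted p under 0.05 (9.09%, against 12.2% of rows). Rpl15 was lowest at -0.113 (SE 0.025, adjusted p = 0.0664), and Rpl39l highest at 0.039 (SE 0.021, adjusted p = 0.469). Rpl15 was called without APP23 1xLPS replicate 5 (adjusted p = 0.0349), WT 1xLPS replicate 2 (0.0461), WT PBS replicate 3 (0.0496) or WT PBS replicate 4 (0.0414). With 33 degrees of freedom 3 members passed, Rpl15 and Rplp2 among them, against 3.39% of rows. The interactions and the comparisons above share their PBS libraries.

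**Figure D5:**
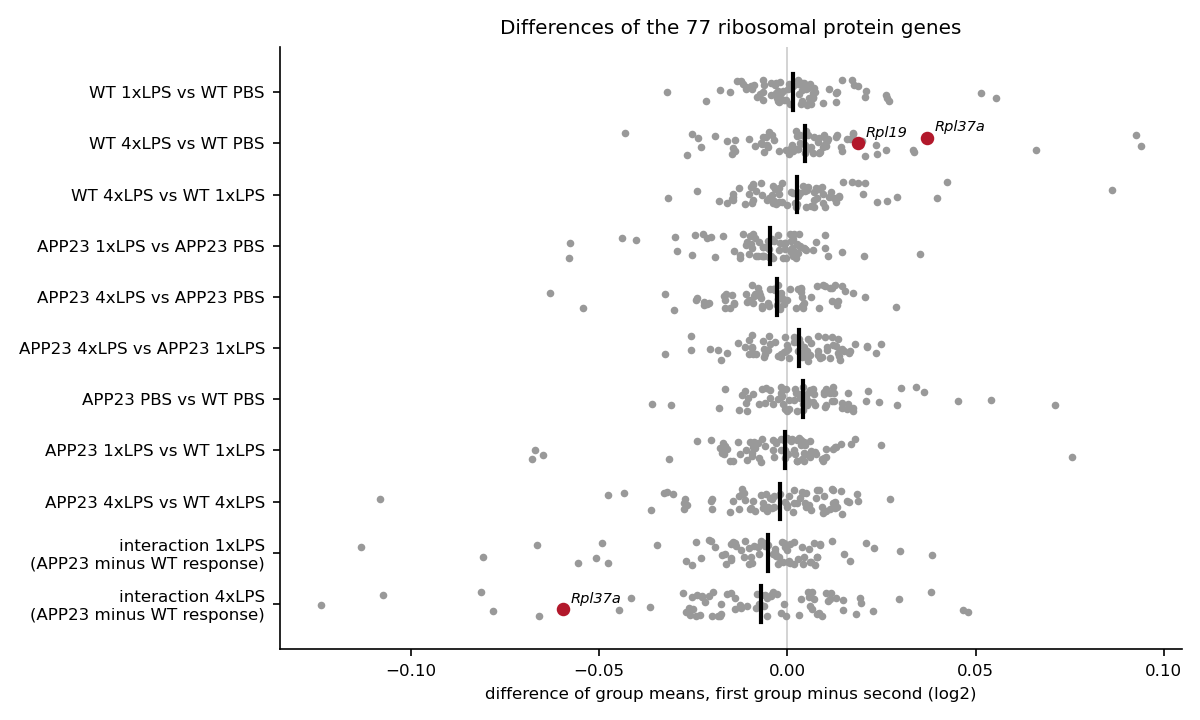
Differences of group means (log2, first-named group minus second, x axis) of the 77 members in the 11 comparisons, 1 point per gene, with a black line at the median of the members. The called members are marked and named: Rpl37a at 0.037 and Rpl19 at 0.019 in WT 4xLPS against WT PBS, and Rpl37a at -0.059 in the interaction for 4xLPS.

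The 95% intervals bound the size of the differences. In WT 4xLPS against WT PBS the intervals of all 77 members lay within -0.076 (Rps4l) and 0.180 (Rps15a). In APP23 PBS against WT PBS they lay within -0.070 (Rps15a) and 0.130 (Rpl22), and in APP23 4xLPS against WT 4xLPS within -0.213 (Rps15a) and 0.062 (Rpl27a). These intervals are on the corrected scale, in which variation was removed, and cover the spread between libraries only.

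Of the paralogs and members with other roles, those listed next differed little between groups. Rpl22, Rpl7l1, Rplp2 and Rpl19 belong to the same set but are described above and are not in the counts below. In WT 4xLPS against WT PBS, Rpl22 differed by 0.093 and Rpl7l1 by -0.043, and Rpl19 was called. The counts below therefore do not describe the whole set. The difference furthest from 0 over the 11 comparisons was -0.014 for Rps27, -0.010 for Rps27l, -0.015 for Rpl7, 0.014 for Rpl22l1, 0.017 for Rpl36al, -0.018 for Rpl10, 0.030 for Rpl10a, -0.021 for Rplp0, 0.011 for Rplp1, 0.027 for Rps6, 0.012 for Rpsa and 0.034 for Rps19bp1. None of these 12 was called in limma, with adjusted p of 0.203 or more; 4 of their 132 tests had an unadjusted p under 0.05, against 12.24% of all tests, and 0 passed on 33 degrees of freedom.

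The genes that make, load or regulate the ribosome follow. Of 35 ribosome biogenesis genes, 1 was higher in WT 4xLPS than in WT PBS, Rpf2, an assembly factor that brings in the 5S rRNA particle: 8.489 ± 0.040 in WT 4xLPS (n = 6) and 8.405 ± 0.035 in WT PBS (n = 9), a difference of 0.084 (SE 0.020, adjusted p = 0.0292). Of all rows, 0.88% were called higher there; 10 of the 35 (28.6%) had an unadjusted p under 0.05, against 17.4% of rows. The H/ACA protein Nop10, which acts in rRNA pseudouridylation, was called in APP23 PBS against WT PBS at 0.065 (SE 0.014, adjusted p = 0.0161). No gene was called in any of the 11 comparisons, in limma, among the 3 partners outside the rule (3 of 33 tests with an unadjusted p under 0.05), 15 elongation factors and other TOP mRNAs (9 of 165) or 16 genes of S6 kinase and TOP control (19 of 176). On 33 degrees of freedom 2, 1 and 11 of these tests passed, with 17 of 385 for ribosome biogenesis and 18 of 847 for mitochondrial ribosomal proteins, against 4620 of 120065 over all rows. Of 77 mitochondrial ribosomal proteins, Mrps28 (0.054, SE 0.014, adjusted p = 0.0427) and Mrpl38 (-0.065, SE 0.017, adjusted p = 0.0361) were called, both in APP23 PBS against WT PBS, where 2.51% of all rows were called. Monocyte Ccr2 was also called in that comparison, as given above, and its part in the calls of Nop10, Mrps28 and Mrpl38 was not tested.

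The authors' deposited table of co-expression modules, groups of genes that vary together over the libraries, held 81 symbols of the rule, 4 of them (Rpl17, Rps27rt, Rps28 and Rps29) not in the expression table. They were spread over all 9 named modules and the unassigned class. In the authors' deposited table, 22 members (27.2%) were unassigned, against 26.0% of all 13624 genes, 12 were in the turquoise and 11 in the blue module. In the authors' deposited table the pink module held 10 members (12.3%), against 3.91% of all genes; they include Rpl15, Rpl37a, Rpl11, Rps28, Rpl36al, Rpl19, Rps25, Rps19bp1 and Rpl29. These shares come from the same libraries as the comparisons and are a description.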

How the data were processed

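The labels' protocols state that RNA of sorted microglia was amplified with a Smart-seq kit and made into Nextera XT libraries. Build mm10 and the tools STAR, HOMER, limma, DESeq2 and FastQC are named, without roles, per the submitters' processing notes. Annotation, strand and the counting of reads with several matches: not given in the sources used here. Log2 is the unit taken for the deposited expression table, whose base is not stated; the authors had normalized it and, per its sheet name, corrected it by surrogate variable analysis. A table by the authors of co-expression results holds, per the file headers, score columns (correlations) and their p-value columns. 1 column of the expression table, named as a WT 4xLPS library, matched no label and was not used. The WT 4xLPS group enters every comparison with a called member. Whether the unused column would change those calls was not tested.

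Group means over 39 libraries were fitted per row with limma 3.58.1 in R 4.3.3, with a mean-variance trend. The residuals had rank 24, not 33 (39 libraries minus 6 groups), so the 9 directions with no residual variance entered as covariates. P-values were adjusted by Benjamini-Hochberg over all 10915 rows, and 0.05 was the threshold. No pseudocount or filter was used. The code was tested on simulated data.

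Shared sequence was counted in GENCODE M21 transcripts of GRCm38, matched by symbol, in windows of 50 bases; 1 transcript per gene was chosen by annotation rank and then the shorter. Overlapping genes counted as 1 locus. Named members were those called, those furthest above and below 0 in each comparison, the 6 with the smallest F p, those lowest and highest in level, those below the lower quartile, and 17 paralogs or members with other roles; others, such as Rps25, Rplp2, Rpl37rt and Rpl38, were chosen after their values were seen. Some members counted in the totals are not reported here by name. The members and lists were chosen with earlier results of these data known. Alternatives were no covariates, no trend, a filter on low levels, recentring, only the compared groups, a replicate block, fewer members and leaving out each library.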

Additional observations from a re-analysis of the deposited data

Results flagged for a closer look

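Rpl19 in APP23 1xLPS had 1 library apart from the others: replicate 2 stood at 4.414, the nearest other library at 4.409 and the lowest at 4.408, so that its gap was 0.789 of the range of the 5 libraries. It was 1 flag among 42 groups of libraries examined, the 6 groups for each of 6 members and for the mean over all members, and chance alone flags about 1 in 20. The response of Rpl37a to 4xLPS differed between APP23 and WT mice, with an interaction of -0.0594 (SE 0.013, adjusted p = 0.0336 in limma). The call was lost with the replicate block (0.0980), without a mean-variance trend (0.0504) and without APP23 4xLPS replicate 1 (0.0581) or replicate 4 (0.0535).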

How the results depend on the processing

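Without covariates for the missing directions (33 degrees of freedom) limma called 2 members in WT 1xLPS against WT PBS, 9 in WT 4xLPS against WT PBS, 1 in WT 4xLPS against WT 1xLPS, 1 in APP23 4xLPS against APP23 1xLPS, 3 in APP23 PBS against WT PBS, 2 in APP23 against WT after 1xLPS, 2 after 4xLPS, 3 and 5 in the interactions for 1xLPS and 4xLPS, and 12 in the F test. In WT 4xLPS against WT PBS, the 4xLPS interaction and the F test, where the counts were 2, 1 and 1, there were 1, 0 and 0 without a trend, and 0 in each with rows below the lower quartile left out, a filter that removes Rpl37a and Rpl19. Recentring left 1 in the first. With only the compared groups fitted there was 1 in WT 1xLPS against WT PBS (Rpl15), 1 in WT 4xLPS against WT 1xLPS (Rpl22), 2 in APP23 PBS against WT PBS, 1 in APP23 1xLPS against WT 1xLPS (Rpl15), 2 in the 1xLPS interaction and 4 in the 4xLPS interaction. With a replicate block the counts were 0, 0 and 0 in WT 4xLPS against WT PBS, the 4xLPS interaction and the F test; it changed no other count. Same-numbered libraries correlated at -0.32 to 0.28, 8 of 49 over 0.1 and 6 of 49 best with their own number, so the numbers were not taken as pairs; in APP23 4xLPS against APP23 1xLPS, 4 of 4 were best with their own number and 3 of 4 over 0.1. Leaving out 1 library gave 1 to 2 members in WT 4xLPS against WT PBS, 0 to 1 in APP23 PBS against WT PBS, 0 to 1 and 0 to 2 in the interactions for 1xLPS and 4xLPS, 0 to 3 in the F test, and a median 4xLPS interaction between -0.0115 (without APP23 4xLPS replicate 2) and -0.0057. The F count was 2 without APP23 1xLPS replicate 5, APP23 4xLPS replicate 4, APP23 PBS replicate 1 or 3, WT 1xLPS replicate 2 or 8, WT 4xLPS replicate 3 or 4, or WT PBS replicate 4, 7 or 9. The share of all rows called is given above for the main fit and for 33 degrees of freedom, and not for the other settings. Counts under those other settings show only how the calls of members moved.

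Over the 11 members at or above the lower quartile, the median difference was -0.011 and -0.0094 for APP23 1xLPS and 4xLPS against PBS, 0.0098 for APP23 PBS against WT PBS, -0.0100 for APP23 against WT after 1xLPS and -0.0100 after 4xLPS, and -0.019 and -0.024 for the interactions; recentring gave -0.00082 for the 1xLPS interaction. No called value changed sign; medians near 0 did, in WT 1xLPS against WT PBS, APP23 4xLPS against APP23 1xLPS, and APP23 against WT after 1xLPS and after 4xLPS. Where values moved the cause was not tested. Medians over all rows at or above the lower quartile were not computed, so those of the 11 members have no background matched for level. Depth is unknown, so the precision of low rows could not be computed from counts.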
